A study of Mus musculus with 298 samples.

Results

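Chat, Slc18a3, Slc5a7 and Ache encode the proteins that make, load, resupply and break down acetylcholine. These 4 genes were taken by name from a table of 16892 genes, counted in 298 cells, each sequenced singly, from sympathetic ganglia of the mouse thorax, and are described here by the identity that the labels give each cell. The mice, of both sexes and 11 to 38 days old, carried the R26R-Tomato reporter with Wnt1-Cre, a Cre line active in the neural crest, which marks the ganglia against other tissue. Every group shares this cross, and the labels give no treatment. The labels name 16 cholinergic cells (8 Ach1, 8 Ach2), 4 Glutamatergic cells and 193 noradrenergic cells, and leave 85 cells Unclassified. Noradrenergic1, 2, 4 and 5 hold 10, 39, 18 and 23 cells, and Noradrenergic3 the remaining noradrenergic ones.

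Neurons make acetylcholine from choline and acetyl-CoA, and the transmitter works as a cycle. Chat, choline acetyltransferase, joins the 2 substrates; Slc18a3, the vesicular acetylcholine transporter, moves the product into synaptic vesicles; and Ache, acetylcholinesterase, splits it outside the cell so that Slc5a7, the high-affinity choline transporter, can take the choline back up. Most sympathetic neurons release noradrenaline and receive acetylcholine from spinal neurons, while a small cholinergic class, known for innervating sweat glands and for making the peptide Vip, releases acetylcholine itself.

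Cells were drawn from 10 collections, a collection being all cells of the same sex and age, and these served as replicates because the labels name no animals. A cell had 7225 to 81589 counts in all, with medians of 32937 in the cholinergic, 37379 in the noradrenergic, 25756 in the Glutamatergic and 22977 in the Unclassified cells. The identities may have been drawn from these same transcriptomes, so p-values between identities are no independent evidence, and they measure the spread between collections only. In the small identities a collection was often 1 cell. Some cells carried genes that go against their label. Th, which makes catecholamines, stood at 33 to 61 counts in 4 of 8 Ach1 cells and at 130 in 1 Glutamatergic cell, against 0 to 3 in all other cholinergic and Glutamatergic cells, so results were also computed without these 5 cells. The Ach1 cell with 61 counts of Th also held 586 of Npy and 63 of Slc6a2, the noradrenaline transporter. The Glutamatergic cell with Th held 555 and 68. The remaining Ach1 cells with Th held 0 of Npy and 1 to 10 of Slc6a2. The 5 cells of the P16 collection, labelled female, held 28 counts over 4 Y-linked genes and 0 of Xist; they are called P16 female here as a name only.

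Chat and Slc18a3 share a locus. In the GENCODE annotation of build GRCm38 (the mm10 of the deposited table), Chat spans chr14:32408203-32465989 on the minus strand, and the only exon of Slc18a3, at chr14:32462438-32464850, lies in the intron between exons 1 and 2 of the 16 exons of Chat on the same strand. No exon of any annotated Chat transcript overlapped Slc18a3, so counts on spliced exons keep the genes apart. How reads in that intron were counted was not given in the sources used here. Slc5a7 lies on the minus strand at chr17:54273590-54299034 and Ache on the plus strand at chr5:137287519-137294466.

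The promoters are shown because 3 of the genes were counted in the same few cells while Ache was counted nearly everywhere. Each sequence is the exon-free portion of the RefSeq promoter window (build GRCm38.p6, from 250 bases before to 50 after the gene's start), 5′ to 3′ on the gene's own strand, with every CG dinucleotide in capitals. They cover chr14:32465990-32466159 (Chat, minus strand, just before the gene), chr14:32464851-32465100 (Slc18a3, minus strand, inside the Chat span), chr17:54299039-54299284 (Slc5a7, minus strand, just before the gene) and chr5:137288058-137288246 (Ache, plus strand, inside the annotated span of the gene but outside its exons).
Chat: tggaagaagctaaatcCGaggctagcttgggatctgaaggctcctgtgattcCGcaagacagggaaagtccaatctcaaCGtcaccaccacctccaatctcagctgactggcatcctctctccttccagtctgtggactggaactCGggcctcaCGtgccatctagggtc
Slc18a3: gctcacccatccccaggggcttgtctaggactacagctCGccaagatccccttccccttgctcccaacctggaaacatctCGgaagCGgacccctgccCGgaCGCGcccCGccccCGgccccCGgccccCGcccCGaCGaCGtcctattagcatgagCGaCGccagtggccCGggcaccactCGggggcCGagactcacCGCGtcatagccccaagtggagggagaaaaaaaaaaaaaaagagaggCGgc
Slc5a7: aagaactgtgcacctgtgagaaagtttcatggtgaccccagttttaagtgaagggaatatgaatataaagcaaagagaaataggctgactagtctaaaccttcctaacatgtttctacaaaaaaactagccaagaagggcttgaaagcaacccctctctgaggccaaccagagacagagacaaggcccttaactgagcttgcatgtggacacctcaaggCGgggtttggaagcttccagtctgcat
Ache: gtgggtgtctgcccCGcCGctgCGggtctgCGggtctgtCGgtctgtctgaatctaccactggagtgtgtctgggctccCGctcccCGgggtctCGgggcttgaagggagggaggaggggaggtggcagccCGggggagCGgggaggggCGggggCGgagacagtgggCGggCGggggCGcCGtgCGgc
The whole window of 300 bases held 10 CG dinucleotides for Chat, 27 for Slc18a3, 1 for Slc5a7 and 30 for Ache, beside a median of 7 over 32851 promoters of that length. As many CG or more were held by 11.7% of promoters in the case of Ache, 15.5% for Slc18a3, 43.5% for Chat and 94.6% for Slc5a7. The richest windows were those of Ache, counted in 291 of 298 cells, and Slc18a3, counted in 28. A link between CG content and counts was not tested. 3 motifs were searched on either strand. The E-box CANNTG occurred 2 times for Chat, 1 time for Slc18a3, 4 times for Slc5a7 and 1 time for Ache, and 72.3% of all promoters hold it. GATA occurred 1 time, for Slc5a7, and 57.9% of promoters hold it. TCAGCACC, a stretch of the element bound by the repressor Rest, had no match in any of the 4 windows and 1.65% of promoters hold it, which says only that these letters are not there.

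Acetylcholine synthesis had the fewest counts of the 4 steps. Chat was detected in 11 of 16 cholinergic cells (68.8%, exact 95% binomial interval 41.3 to 89) and in 3 of 193 noradrenergic cells (1.55%, 0.322 to 4.48); intervals here cover counting error only. The 8 Ach1 cells held 3 (P16 female), 1 (P29 male), 5 (P30 female), 1 (P30 male), 0 and 4 (P31 female), 0 (P33 female) and 2 (P38 male) counts. The 8 Ach2 cells held 1 (P16 female), 0, 1, 2 and 2 (P29 male), 0 (P30 female), 2 and 0 (P38 male). Counts of 0 occurred in both cholinergic identities, and no cell exceeded 5. Pooled within a collection, Chat stood at 0.535 ± 0.295 counts per 10000 in Ach1 (SD, n = 7 collections) and 0.297 ± 0.213 in Ach2 (n = 4). Outside the cholinergic identities it had 2 counts in 2 Noradrenergic3 cells, 1 in a Noradrenergic5 cell, and 0 in all Noradrenergic1, Noradrenergic2, Noradrenergic4 and Glutamatergic cells. By edgeR, Chat was called higher in Ach1 than in each of Noradrenergic1 to 5 (adjusted p of 0.0145 or less). In the same order, 1.36%, 4.17%, 4.77%, 1.96% and 2.10% of genes were called. Ach2 was called above Noradrenergic2 (adjusted p = 0.000727), Noradrenergic3 (adjusted p = 0.000567) and Noradrenergic4 (adjusted p = 0.0476), where 3.28%, 3.49% and 2.05% of genes were called. In counts this low Ach2 was not separated from Noradrenergic5 (adjusted p = 0.258), Noradrenergic1 (adjusted p = 0.142) or the Glutamatergic cells (adjusted p = 0.540). Nor was Ach1 separated from the Glutamatergic cells (adjusted p = 0.338). For the 39 Noradrenergic2 cells the interval of the share reaches up to 9.03% and for the 4 Glutamatergic cells up to 60.2%.

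Chat, Slc18a3 and Slc5a7 were each higher in the cholinergic than in the noradrenergic cells by edgeR's quasi-likelihood test, while Ache was not called. In this comparison 4.57% of 11555 genes were called and 2.17% were higher (251 higher and 277 lower; with RLE scaling 338 and 219, with DESeq2 193 and 406, and the median of all genes, -0.20 on the log2 scale, moved to -0.04 with RLE). Chat rested on 24 counts against 3, a ratio of pooled levels of 108 (95% counting interval 32.8 to 561). The edgeR adjusted p of 7.84e-11 belongs to the fit, which blocks on collection and weights identities equally, and not to this ratio. The fitted log2 fold change ran from 4.63 to 5.19 with a collection left out. Over all alternatives that gave an adjusted p it ran from 2.95 to 5.63. In the collections with both classes Chat was higher in the cholinergic cells in 6 of 7, and in the other, P33 female, it was at 0 on both sides.

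Vesicle loading was counted mostly in the cholinergic cells. Slc18a3 was present in 15 of 16 cholinergic cells, against 6 of 193 noradrenergic ones (3.11%, 1.15 to 6.64). Ach1 cells held 13 (P16 female), 7 (P29 male), 15 (P30 female), 1 (P30 male), 0 and 10 (P31 female), 3 (P33 female) and 6 (P38 male) counts, and Ach2 cells 7 (P16 female), 8, 11, 12 and 15 (P29 male), 12 (P30 female), 3 and 7 (P38 male). The cholinergic cell without Slc18a3 was the P31 female cell with 61 counts of Th, which also lacked Chat. Levels were 1.88 ± 1.04 counts per 10000 in Ach1 (n = 7 collections) and 2.78 ± 1.30 in Ach2 (n = 4). The lowest cholinergic collection stood at 0.718 and the highest noradrenergic one at 0.0634, so the ranges did not overlap. On the log2 scale the difference was 6.82 (SE 0.43, adjusted p = 1.83e-51 by edgeR; 130 counts against 9), higher in 7 of 7 collections, and 7.46 without the cells that held Th. Among noradrenergic identities Slc18a3 was counted in 3 of 23 Noradrenergic5, 2 (1.94%) of Noradrenergic3, 1 of 39 Noradrenergic2 and no Noradrenergic1 or Noradrenergic4 cell, with 1 or 2 counts each. In the order of level, Ach2 and Ach1 did not differ beyond their spread (adjusted p = 0.926), and Noradrenergic5 came next at 0 to 0.245 over its 6 collections, below every Ach1 collection. Noradrenergic5 was not separated from Noradrenergic3 (adjusted p = 0.29).

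**Figure D1:**
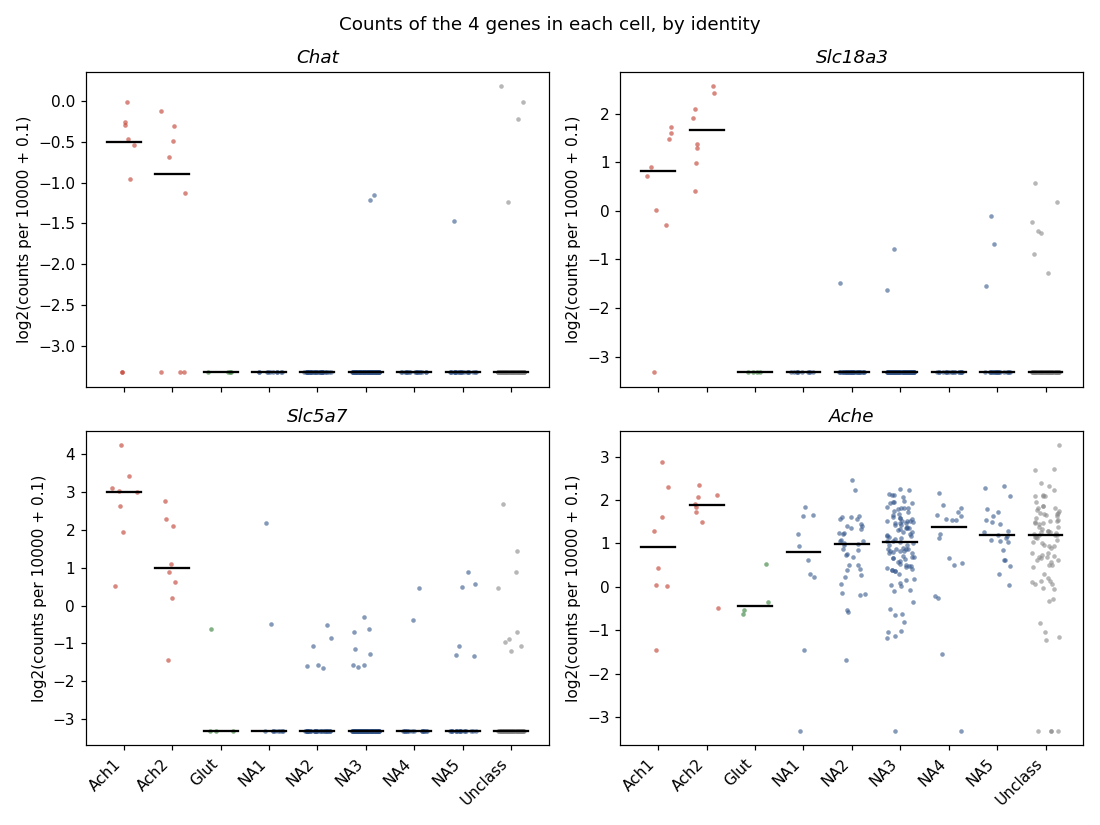
Level of each gene in each of the 298 cells, as log2 of counts per 10000 plus 0.1, by identity (NA1 to NA5 are Noradrenergic1 to 5, Glut is Glutamatergic, Unclass is Unclassified); each point is a cell, the black bar is the median, and points on the lowest line have no count. Chat, Slc18a3 and Slc5a7 stand high in Ach1 and Ach2 with scattered cells elsewhere, while Ache fills every identity.

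Choline uptake had the most counts of the 3 cholinergic steps and was counted in every noradrenergic identity. Slc5a7 was found in all 16 cholinergic cells, against 24 of 193 noradrenergic ones (12.4%, 8.13 to 17.9); thinned to 15000 counts per cell the expected shares were 94.5% and 6.70%, with 1 and 2 shallower cells left out. Ach1 cells held 25 (P16 female), 9 (P29 male), 106 (P30 female), 11 (P30 male), 5 and 52 (P31 female), 35 (P33 female) and 29 (P38 male) counts. Ach2 cells held 4 (P16 female), 2, 9, 12 and 22 (P29 male), 9 (P30 female), 1 and 5 (P38 male). The highest Ach1 cell was the P30 female one, and the ranges of the identities overlapped between 5 and 22 counts. Slc5a7 rose by 5.32 on the log2 scale in cholinergic against noradrenergic cells (SE 0.30, edgeR adjusted p = 1.79e-43), and in 7 of 7 collections. Without the cells that held Th the change was 5.27. Pooled over identities, cholinergic collections stood at 3.66 counts per 10000 or more and noradrenergic ones at 0.220 at most. Single identities overlapped: Ach2 collections ran from 0.974 to 4.53, and Noradrenergic1 reached 4.43.

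Within the cholinergic cells, Slc5a7 was the only one of the 4 genes called between Ach1 and Ach2, a comparison in which 0.138% of genes were called. Its level was 8.77 ± 4.97 counts per 10000 in Ach1 (n = 7 collections) against 2.17 ± 1.61 in Ach2 (n = 4), which the fit put at 1.88 on the log2 scale (SE 0.36, adjusted p = 0.000958 by edgeR). In the 4 collections that held both, Ach1 was higher in P16 female (6.14 against 1.43), P30 female (18.9 against 1.76) and P38 male (8.53 against 0.974) and lower in P29 male (3.75 against 4.53). The call ended without P30 female (1.36, adjusted p = 0.179), without P38 male (1.65, adjusted p = 0.0614) and without the cells that held Th (1.58, adjusted p = 0.0600), and also with filterByExpr, DESeq2, voom, no replicate block or at least 2 cells per library. Chat (0.89, SE 0.77, adjusted p = 0.841), Slc18a3 (-0.32, SE 0.45, adjusted p = 0.926) and Ache (-0.47, SE 0.34, adjusted p = 0.807) were not called between Ach1 and Ach2.

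The balance between choline uptake and vesicle loading is given as the ratio of Slc5a7 to Slc18a3 counts, in which the depth of the cell cancels. This measure was chosen after its values were seen. The ratio ran from 1.29 to 11.7 with a median of 5.20 in the 7 Ach1 cells with Slc18a3, and from 0.143 to 1.83 with a median of 0.775 in the 8 Ach2 cells. Pooled, the counts were 272 to 55 in Ach1 and 64 to 75 in Ach2. Within collections the ratio was 1.92 in Ach1 and 0.571 in Ach2 (P16 female), 1.29 and 0.978 (P29 male), 7.07 and 0.750 (P30 female), and 4.83 and 0.600 (P38 male). It was higher in Ach1 in 4 of 4 collections, and the two-sided exact sign-flip p was 0.125, the smallest that 4 pairs allow.

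**Figure D2:**
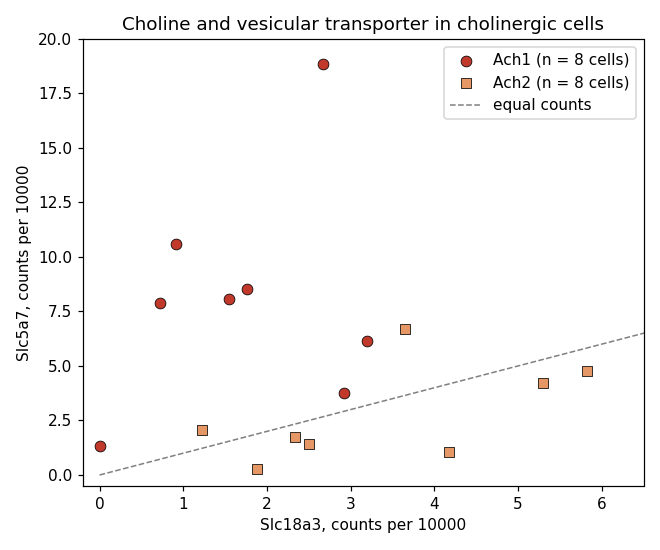
Slc18a3 (x axis) and Slc5a7 (y axis) in counts per 10000 in the 16 cholinergic cells; circles are Ach1, squares are Ach2 and the dashed line marks equal counts. All 8 Ach1 cells lie above the line and 6 of 8 Ach2 cells lie below it.

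The tail of Slc5a7 in noradrenergic cells was uneven. Noradrenergic5 had 6 of 23 cells with a count, Noradrenergic1 had 2 of 10, Noradrenergic2 had 6 of 39, Noradrenergic4 had 2 of 18, and Noradrenergic3 had 8 (7.77%), with 1 to 5 counts each. Noradrenergic1 stood at 0.958 ± 1.95 counts per 10000 (n = 5 collections), a mean that rests on 1 P30 female cell with 5 counts of a total of 11281; in the other 4 collections it stood at 0.359 or 0. Noradrenergic5 stood at 0.184 ± 0.375 (n = 6), led by P33 female at 0.937. Against the other 4 noradrenergic identities, Slc5a7 was not called in Noradrenergic5 (1.55, SE 0.59, adjusted p = 0.268), in Noradrenergic3 (-1.48, SE 0.57, adjusted p = 0.235) or in Noradrenergic1 (1.79, SE 0.80, adjusted p = 0.412), where 1.41%, 1.74% and 1.39% of genes were called. These differences moved with single collections: Noradrenergic1 fell to 0.33 without P30 female, Noradrenergic3 stood at -0.58 without P30 female and -2.15 without P29 male (adjusted p = 0.0383), and Noradrenergic5 at 0.77 without P33 female and 2.24 without P30 female (adjusted p = 0.0315). In the direct contrast of Noradrenergic3 and Noradrenergic5 it was lower in Noradrenergic3 by 2.43 (SE 0.67, edgeR adjusted p = 0.0199; 2.22% of genes called), with 12 counts in 8 cells against 15 in 6. That call rested on few cells: it ended without P31 female (-2.59, adjusted p = 0.281) and without P33 female (-1.66, adjusted p = 0.425), and with RLE scaling, filterByExpr, DESeq2, voom or no replicate block. In the order of level, Ach2 stood above Noradrenergic1 by 2.95 (adjusted p = 0.000625; 1.51% of genes called), a call that ended without P29 male (2.05, adjusted p = 0.421), without P31 female (2.31, adjusted p = 0.0588), and with filterByExpr, DESeq2, voom, no replicate block or the chip as block. Without P30 female the difference was 4.90, and the genes called fell from 174 to 66 without P29 male, to 116 without P31 female and to 88 without P38 male. No neighbours from Noradrenergic1 downward were separated (adjusted p of 0.683 or more).

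Acetylcholine breakdown was counted in nearly every cell. Ache was counted in 291 of 298 cells, among them all 16 cholinergic, all 4 Glutamatergic and 190 of 193 noradrenergic cells. Its mean level ran from 3.53 ± 1.11 counts per 10000 in Ach2 (n = 4 collections) through 2.88 ± 2.37 in Ach1 (n = 7), 2.42 ± 0.558 in Noradrenergic5 (n = 6), 2.34 ± 0.699 in Noradrenergic4 (n = 5), 2.07 ± 0.447 in Noradrenergic2 (n = 7), 1.89 ± 0.573 in Noradrenergic3 (n = 7) and 1.63 ± 1.19 in Noradrenergic1 (n = 5) to 0.752 ± 0.203 in the Glutamatergic cells (n = 3). No neighbours in this order differed beyond their spread (edgeR adjusted p of 0.539 or more). Ach1 was the most dispersed, from 0.688 in P31 female to 7.18 in P30 male, and its cells held 1 to 27 counts.

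Ache was not called between cholinergic and noradrenergic cells, and their collections overlapped. Noradrenergic collections ran from 1.5 to 2.61 counts per 10000 with a mean of 1.97 ± 0.409 (n = 10), and cholinergic ones from 0.688 to 7.18 with a mean of 3.14 ± 2.19 (n = 7). Cholinergic cells were higher in 4 and lower in 3 of the 7 collections with both. The fitted log2 fold change, which weights identities equally and blocks on collection, was 0.09 (SE 0.21, edgeR adjusted p = 0.914) beside a median of -0.20 over all genes, and its sign changed with other settings. The pooled counts, 147 against 1495, gave a ratio of 1.33 (counting interval 1.11 to 1.58), a range that leaves out the spread between collections.

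**Figure D3:**
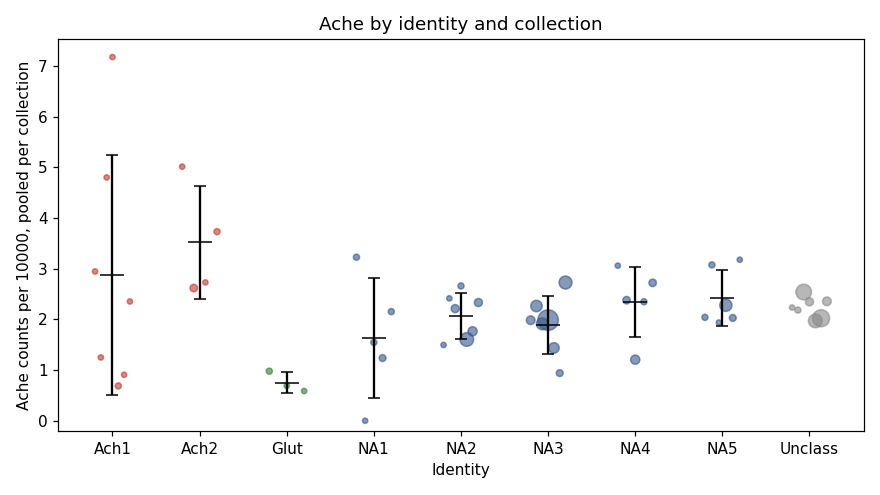
Ache in counts per 10000 (y axis), pooled within each collection, by identity; points are collections with an area that grows with the number of cells, and the black bar and whiskers are the mean and SD over collections (not drawn for the Unclassified cells). The Glutamatergic collections lie below 1, and Ach1 spreads from 0.688 to 7.18.

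The Glutamatergic cells were the lowest in Ache. Their 4 cells held 1, 2, 3 and 3 counts, and their collections stood at 0.979 (P29 male), 0.691 (P31 female) and 0.587 (P33 female), all below the lowest pooled noradrenergic collection (1.5), although single collections of Noradrenergic1 (0) and Noradrenergic3 (0.941) reached as low. The difference from the noradrenergic cells was -1.58 on the log2 scale (SE 0.50) with an edgeR adjusted p of 0.0601, where 2.63% of genes were called and the median gene stood at -0.39. With RLE scaling it was -1.18 (adjusted p = 0.265), and without the cell that held Th -1.60 (adjusted p = 0.137). It was called with DESeq2 (-1.71, adjusted p = 0.0204), with the chip as block (-1.87, adjusted p = 0.00716), with no filter, with no replicate block, and without P11 female, P30 female or P30 male. Against Noradrenergic5 alone Ache was lower by 1.89 (SE 0.53, edgeR adjusted p = 0.0234; 2.02% of genes called). This call ended when any 1 of the Glutamatergic collections was left out (-2.02, -1.72 and -1.95 without P29 male, P31 female and P33 female), and with RLE scaling, filterByExpr, at least 2 cells per library or without the cells that held Th. The single Glutamatergic cell with another of the 4 genes was a P29 male cell with 1 count of Slc5a7, and Chat and Slc18a3 were at 0 in all 4. Against them, where 1.51% of genes were called, edgeR called the cholinergic cells higher in Slc18a3 (adjusted p = 5.01e-05) and Slc5a7 (adjusted p = 4.05e-08). Slc18a3 had 130 counts against 0, a ratio of 9.64 if the Glutamatergic side is set at a floor of 3 counts. Slc5a7 had 336 counts against 1, a ratio of 74.7 with a counting interval of 13.3 to 2960. Chat (24 counts against 0, adjusted p = 0.400) and Ache (1.67, SE 0.53, adjusted p = 0.0857) were not called. For Chat the same floor gives a ratio of 1.78. The counting intervals of its pooled levels overlapped, at 0.283 to 0.657 counts per 10000 in cholinergic and 0 to 0.305 in Glutamatergic cells. Neither ratio on a floor is a lower bound.

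Among the noradrenergic identities Ache was called in none. Each identity was compared with the other 4, and the log2 differences were -0.55 (Noradrenergic1, adjusted p = 0.592), 0.04 (Noradrenergic2, adjusted p = 0.998), 0.04 (Noradrenergic3, adjusted p = 0.961), 0.08 (Noradrenergic4, adjusted p = 0.971) and 0.39 (Noradrenergic5, adjusted p = 0.739), with 1.64% of genes called for Noradrenergic2 and 1.25% for Noradrenergic4. Within collections Noradrenergic5 was above Noradrenergic3 in 6 of 6. In the direct contrast of Noradrenergic3 against Noradrenergic5 Ache was not called by edgeR (-0.27, SE 0.25, adjusted p = 0.877). In Noradrenergic3, the identity with cells enough to compare sexes, Ache stood at 2.27 and 2.73 in the male collections (P29 and P38) and at 1.99, 1.91, 1.99, 1.44 and 0.941 in the female ones (P11, P30, P31, P33 and P34). Both male values lay above all female ones. The male minus female difference was 0.51 (SE 0.22) with an edgeR p of 0.0257 before adjustment and above 0.99 after it, where 0.0296% of genes were called. Chips were grouped by the first part of their identifier, 1772099 or 1772116, which need not be a production lot. All male cells came from chips with the prefix 1772116. Noradrenergic cells with that prefix stood at 2.31 in Ache, against 1.86 with 1772099. Of the female collections, P30 (1.91) and P34 (0.941) lay wholly on chips with the prefix of the males, and P11 and P31 (each 1.99) on the others.

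Scaled by transcript length, the 4 genes can be set beside each other, on the assumption, not stated in the sources, that reads were counted along the transcript. Pooled cholinergic cells held 0.154 counts per 10000 per kilobase of Chat, 0.991 of Slc18a3, 1.19 of Slc5a7 and 1.24 of Ache. Pooled noradrenergic cells held 0.00143, 0.00508, 0.0121 and 0.931. Per kilobase, the level of Ache was close to those of both transporters in cholinergic cells and far above them in noradrenergic cells. Without scaling, pooled cholinergic cells held 2.39 counts per 10000 of Slc18a3, 6.18 of Slc5a7 and 2.70 of Ache. The closeness of Ache to Slc5a7 thus depends on the scaling.

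Acetylcholinesterase is held at the cell surface by partner proteins, and these were less even than the enzyme. Colq, the collagen tail that anchors it in the extracellular matrix, was counted in 13 of 16 cholinergic and 50 of 193 noradrenergic cells, and was higher in the cholinergic cells by 2.23 (SE 0.44, edgeR adjusted p = 2.68e-05). Of its 68 cholinergic counts, 57 lay in Ach1. Its Ach1 cells held 0 to 22 counts, the highest in P30 female (22) and P30 male (17), and its Ach2 cells 0 to 3. The difference between them was not called (1.37, SE 0.58, adjusted p = 0.595). Mean Colq levels over collections were 2.88 ± 4.30 counts per 10000 in Ach1 and 0.442 ± 0.262 in Ach2. The Ach2 mean lay below those of Noradrenergic4 (0.875 ± 0.945) and Noradrenergic5 (0.566 ± 0.277). Within the noradrenergic class Colq was higher in Noradrenergic4 (3.01, SE 0.43, edgeR adjusted p = 3.15e-09; 50 counts in 10 of 18 cells, up to 18) and in Noradrenergic5 (2.74, SE 0.44, edgeR adjusted p = 5.04e-07; 50 counts in 18 of 23 cells, up to 6), each against the other 4. Noradrenergic3 held 29 counts in 16 cells (15.5%), Noradrenergic2 held 7 in 5 of 39 and Noradrenergic1 held 1 in 1 of 10. Noradrenergic5 stood at 0.128 to 0.937 counts per 10000 over its 6 collections and Noradrenergic3 at 0.117 or less, so these did not overlap. Bche, butyrylcholinesterase, an enzyme that also splits acetylcholine, was counted in 60 of 298 cells and was not called between cholinergic and noradrenergic cells (0.65, SE 0.72, adjusted p = 0.745). Prima1, which anchors the enzyme in neuronal membranes, had 24 counts in 22 cells; 6 of these counts lay in Unclassified cells, which are not in the fit, and the rest did not reach the minimum of 20. It was held by 6 of 16 cholinergic and 11 of 193 noradrenergic cells.

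The 3 cholinergic genes mostly occurred together in the cells labelled cholinergic and apart elsewhere. Chat, Slc18a3 and Slc5a7 were all counted in 11 of 16 cholinergic cells (6 Ach1, 5 Ach2), 4 held Slc18a3 and Slc5a7 without Chat, and the P31 female Ach1 cell with 61 counts of Th held 5 of Slc5a7 alone. All 16 also held Ache. Pearson's r of the levels of Slc18a3 and Slc5a7 was 0.29 over the 8 Ach1 cells, 0.58 over the 8 Ach2 cells and -0.07 over all 16, a description in sparse counts of cells that share collections. At a minimum of 2 counts each, the 3 genes occurred together in 7 of 16. Dbh, which turns dopamine into noradrenaline, was counted in all 16 cells (4 to 83 counts).

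**Figure D4:**
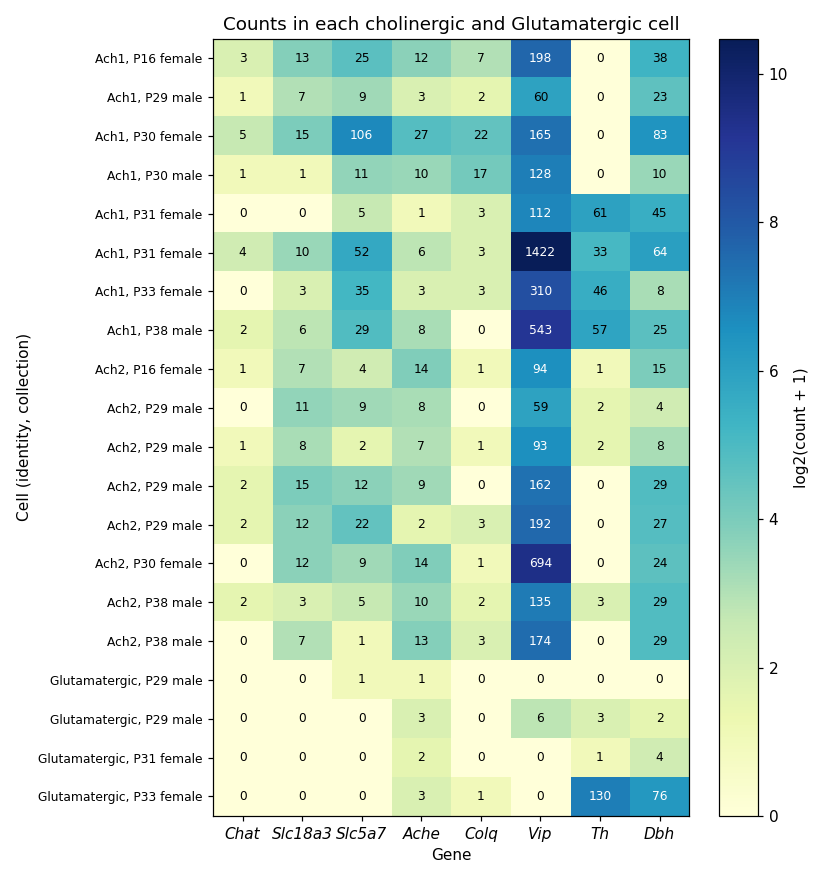
Counts in each of the 16 cholinergic and 4 Glutamatergic cells (rows, with identity and collection) for the 4 genes, Colq, Vip, Th and Dbh (columns); colour is log2 of the count plus 1 and the number is the count. Slc5a7 is present in every cholinergic row, Chat is at 0 in 5 of them, and Th is above 30 in 4 Ach1 rows and 1 Glutamatergic row.

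Of the noradrenergic cells 30 of 193 held any of the 3 genes (15.5%, exact interval 10.7 to 21.4), and 28 of these held exactly 1 of them: 22 Slc5a7, 4 Slc18a3 and 2 Chat. By identity the share was highest in Noradrenergic5, with 8 of 23 cells (34.8%, 16.4 to 57.3), and lowest in Noradrenergic3, with 11 cells (10.7%, 5.45 to 18.3). Noradrenergic1 had 2 of 10, Noradrenergic2 had 7 of 39 and Noradrenergic4 had 2 of 18. The intervals of Noradrenergic3 and Noradrenergic5 overlap, and the difference of these shares was not tested. All 30 cells held Th, at 16 to 151 counts, and Dbh, at 9 to 141. Both genes were counted in all 193 noradrenergic cells, so any subset of them would hold both. Of the 30 cells, 29 also held Ache. Vip was counted in 11 of the 30, beside 29 of all 193 noradrenergic cells, an overlap that was not tested. A noradrenergic cell with all 3 genes was a P31 female Noradrenergic5 cell with 1 count of Chat, 2 of Slc18a3, 5 of Slc5a7 and 5 of Ache beside 55 of Th, 38 of Dbh and 0 of Vip. A P31 female Noradrenergic3 cell held 1 count each of Slc18a3 and Slc5a7 with 19 of Vip. The holders came from 7 of 10 collections, 16 of 85 noradrenergic cells in P31 female, 5 of 21 in P29 male, 3 of 21 in P30 female, 2 of 22 in P33 female, 2 of 27 in P38 male, and 1 each in P20 and P34 female, with none in P11 female (9 cells), P16 female (1) or P30 male (2). At a minimum of 2 counts 14 of 193 cells held any of the genes and 1 held more than 1 of them.

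**Figure D5:**
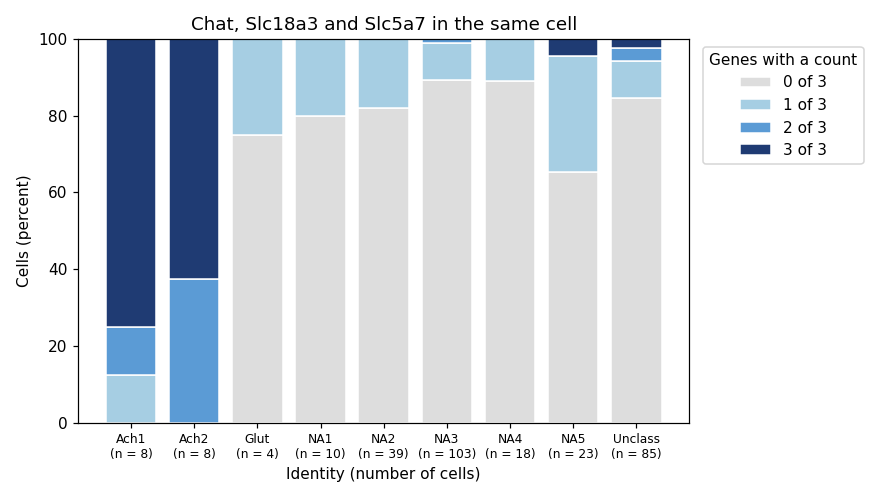
Share of cells (percent, y axis) with a count of 0, 1, 2 or 3 of Chat, Slc18a3 and Slc5a7, by identity with the number of cells below each bar. Cells with all 3 make up 6 of 8 Ach1 and 5 of 8 Ach2 cells, 1 of 23 Noradrenergic5 and 2 of 85 Unclassified cells.

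The Unclassified cells, which enter no comparison, held 7 counts of Chat in 4 cells, 10 of Slc18a3 in 7, 31 of Slc5a7 in 9 and 432 of Ache in 81 of 85. Any of the 3 cholinergic genes was counted in 13 of 85 cells (15.3%, 8.40 to 24.7), and 5 of these held more than 1. All 3 occurred in a P29 male cell with 1 count of Chat, 2 of Slc18a3 and 8 of Slc5a7 beside 60 of Vip and 74 of Th, and in a P33 female cell with 2, 2 and 1 beside 0 of Vip and 35 of Th. A further P29 male cell held 10 counts of Slc5a7, the highest outside the cholinergic cells, with 1 of Slc18a3, 26 of Vip and 32 of Th. A P31 female cell held 2 of Chat, 1 of Slc5a7 and 94 of Vip with 8 of Th, and another held 1 of Slc18a3, 4 of Slc5a7 and 6 of Colq with 41 of Th and 0 of Vip. Vip was thus counted in 3 of the 5 cells and in 9 of the 13 with any of the 3 genes, beside 19 of all 85 Unclassified cells. Th was counted in all 85. The holders were 7 of 24 Unclassified cells in P29 male, 5 of 18 in P31 female and 1 of 29 in P33 female, and none of the other 14. Ache in Unclassified collections ran from 1.97 to 2.54 counts per 10000 with a median of 2.23.

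The genes that supply the substrates are given by their counts. Of 15 tested genes for choline transport, choline phosphorylation and acetyl-CoA supply, 0 were called between cholinergic and noradrenergic cells (median -0.01, beside -0.20 over all genes) and 0 between Ach1 and Ach2. With 4.57% and 0.138% of all genes called in these comparisons, a count of 0 of 15 is near the background. Acly, which makes cytosolic acetyl-CoA, stood at 0.49 (SE 0.18, adjusted p = 0.118). Of 12 nicotinic and muscarinic receptor genes listed in the counts, 7 could be tested, and 0 of these were called in either comparison (median -0.54 in cholinergic against noradrenergic cells and -0.14 in Ach1 against Ach2), again near the background, with Chrna3, the main ganglionic nicotinic subunit, at -0.61 (SE 0.20, adjusted p = 0.0537). Slc10a4, a vesicle transporter found in cholinergic and monoaminergic neurons, was lower in the cholinergic cells by 1.37 (SE 0.23, edgeR adjusted p = 3.02e-07). The 4 peptides linked to cholinergic sympathetic neurons all rose, Vip by 9.50 (SE 0.51, adjusted p = 9.46e-14), while 8 of 10 catecholamine genes fell, Slc6a2, the noradrenaline transporter, by 3.65 (SE 0.25, adjusted p = 8.24e-45). Of 11 receptor and signalling genes known from the switch to the cholinergic fate, 4 rose and 2 fell, and Gfra2, a co-receptor for neurturin, rose by 3.19 (SE 0.26, adjusted p = 1.42e-30). Of 14 transcription factors of the transmitter choice, 1 rose (Sox11, by 1.52) and 7 fell, among them Gata2 (by 1.82) and Tbx20 (by 2.89).

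Summed markers of satellite glia had a higher median in the cholinergic than in the noradrenergic cells, though most single genes were not called. The summed level of 14 glial genes had its median at 30.4 counts per 10000 in the cholinergic cells (range 4.81 to 65), 28.7 in the Glutamatergic (15.1 to 51.8), 26.3 in the Unclassified (0 to 78.6) and 5.68 in the noradrenergic cells (0.864 to 66.6); 14 of 14 were detected in cholinergic and noradrenergic cells, and Erbb3 was at 0 in the Glutamatergic ones. Of 13 tested, 2 rose in the cholinergic cells and 11 were not called, where 2.17% of all genes rose. The summed level of 15 immediate-early and stress genes had medians of 24.5 in the cholinergic and 11.2 in the noradrenergic cells. The part of glial RNA or stress in the levels of the 4 genes was not tested. Of the lists for other cells of the ganglion few genes could be tested: 0 of 1 was called for endothelial cells, 0 of 1 for macrophages, 0 of 5 for fibroblasts and 0 of 3 for smooth muscle cells, which says little beside 4.57% of all genes. The sensory neuron list had 1 of 5 higher (Runx1) and the chromaffin cell list 1 of 2 (Cartpt), with Pnmt, the enzyme that makes adrenaline, at 0 in the cholinergic cells.

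Likeness over libraries set Ache apart. It was measured as Pearson's r of log2 of counts per 10000 plus 0.1 over 51 sums of an identity within a collection, 17 of them of 1 cell, which share collections and depth, and is a description. The gene most like Slc18a3 was Vip (0.92), followed by Pdlim3 (0.90), Chat (0.86), Chn2 (0.85) and Nlgn1 (0.85). Slc5a7 was closest to Chn2 (0.90), Pappa (0.89), Vip (0.84), Slc18a3 (0.83) and Chat (0.79). Chat was closest to Rasgrf1 (0.87), Slc18a3 (0.86), Areg (0.81), Pappa (0.80) and Tcerg1l (0.80). Ache was closest to Nfe2l1 (0.82), Nisch (0.77), Dnajc5 (0.75), Clasp2 (0.72) and Myadm (0.72), and its values with Chat (0.30), Slc18a3 (0.26) and Slc5a7 (0.003) were far lower.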

How the data were processed

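Counts per gene and cell were deposited by the authors as 1 table of whole numbers for polyadenylated RNA of single cells captured on microfluidic chips, and the build is mm10 per the submitters' processing notes. The counting tool, the use of molecular identifiers and of strand, and how identities were assigned are not given in the sources used here. The 4 genes and all gene lists were chosen with earlier results of these data known. Counts were summed per identity and collection (44 libraries of 1 to 43 cells, 16 of them of 1 cell). They were tested with edgeR 4.0.16 (robust quasi-likelihood, TMM scaling, two-sided) in R 4.3.3, with the collection as a block. Genes needed 20 counts in all and a count in 3 libraries; a call is an adjusted p under 0.05 (Benjamini-Hochberg). The SE is the log2 fold change divided by the root of F, so it restates the test. Libraries of the same collection deviated together (correlations 0.149 to 0.160 in 4 pairs, mean -0.03 in 20 other pairs, over 6615 genes), and the labels tie a collection to an age and sex. The contrasts weight identities equally. Alternatives used RLE scaling, filterByExpr, no filter, DESeq2 1.42.0, limma 3.58.1 with voom, no replicate block, the chip as block, libraries of at least 2 cells, each collection left out, and cells with at least 10 counts of Th left out. Levels are counts per 10000 of a cell's or library's total; intervals of shares are exact 95% binomial ones. Only the test of cholinergic against noradrenergic cells was checked on simulated counts, and the other comparisons were not. The simulated libraries had no collection effect. Changes were planted only in genes averaging more than 5 counts per library, which leaves out Chat and Slc18a3. Genes named are the 4, Bche, Prima1 and Colq, up to 4 called genes with the smallest p per list, and the 5 most alike per gene; Acly and Chrna3 were added after their values were seen. Unclassified cells entered no test. Doublets were not called by software; per the labels' protocols, chambers were inspected by eye.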

Additional observations from a re-analysis of the deposited data

Results flagged for a closer look

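In 9 of 23 sets of 4 to 10 collections of 1 identity, the highest collection stood apart from the others by Dixon's gap rule. All 9 sets were noradrenergic identities in which most collections were at 0. The rule is made for normally distributed values and always flags a set with a single collection above 0. The number of flags therefore cannot be set against a chance rate. Slc5a7 stood at 4.43 counts per 10000 in the single P30 female cell of Noradrenergic1, at 0.937 in P33 female Noradrenergic5 (2 of 3 cells), at 0.176 in P30 female Noradrenergic4 (1 of 4 cells) and at 0.140 in P29 male Noradrenergic3 (3 of 12 cells). Slc18a3 stood at 0.245 in the single P34 female cell of Noradrenergic5, at 0.0331 in P38 male Noradrenergic3 (1 of 16 cells) and at 0.0128 in P31 female Noradrenergic2 (1 of 18 cells). Chat stood at 0.0187 in P31 female Noradrenergic5 (1 of 14 cells) and at 0.0165 in P38 male Noradrenergic3 (1 of 16 cells).

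The Unclassified cells, outside all comparisons, held 7 counts of Chat, 10 of Slc18a3, 31 of Slc5a7 and 432 of Ache.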

How the results depend on the processing

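Chat, Slc18a3 and Slc5a7 stayed called in cholinergic against noradrenergic cells under every alternative that gave them an adjusted p; Chat had none with filterByExpr, DESeq2 or at least 2 cells per library. With a collection left out, their log2 fold changes ran from 4.63 to 5.19, from 6.35 to 6.99 and from 5.06 to 5.85. Ache in that comparison changed sign when the chip was the block (-0.10) or libraries of 1 cell were dropped (-0.56), and ran from -0.13 to 0.25 with a collection left out, negative without P16 female or P30 female. Counts of 0 to 5 in single cells and identities of 4 to 10 cells limit what can be seen; a gene at 0 in 4 or 10 cells is not shown to be absent.

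Slc5a7 between Ach1 and Ach2 kept its direction and lost its call with filterByExpr (2.09, adjusted p = 0.220), DESeq2 (2.26, adjusted p = 0.322), voom (1.88, adjusted p = 0.391), no replicate block (1.69, adjusted p = 0.465), at least 2 cells per library (1.28, adjusted p = 0.856) and without the cells that held Th (1.58, adjusted p = 0.0600). It ran from 1.36 to 2.89 with a collection left out. Slc18a3 between Ach1 and Ach2 ran from -0.53 to 0.14, positive without P29 male, and Ache became 0.044 without the cells that held Th. Colq between Ach1 and Ach2, an alternative chosen after seeing the data, became -0.42 with at least 2 cells per library.

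Ache in Glutamatergic against noradrenergic cells was called with no filter (-1.62), DESeq2 (-1.71), no replicate block (-1.69) and the chip as block (-1.87), and ran from -1.62 to -1.54 with a collection left out. Against the Glutamatergic cells, Ache was called in cholinergic cells with no replicate block (1.94) and the chip as block (1.77). Slc5a7 in Glutamatergic against noradrenergic cells, resting on 1 count, became 0.74 with voom, 0.55 with at least 2 cells per library and 0.11 without the cells that held Th, and ran from -3.75 to 0.10 with a collection left out.

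Ache in single noradrenergic identities, never called, changed sign in Noradrenergic2 with RLE (-0.056), filterByExpr (-0.0713) and the chip as block (-0.11), in Noradrenergic3 with RLE (-0.0717) and filterByExpr (-0.0711), and in Noradrenergic4 with the chip as block (-0.16) or without libraries of 1 cell (-0.0586). With a collection left out it ran from -0.0844 to 0.11, from -0.0475 to 0.11 and from -0.0127 to 0.23 in these 3. Slc5a7 was called in Noradrenergic3 with voom (-2.03) and without P29 male (-2.15), and in Noradrenergic5 without P29 male (2.02) or P30 female (2.24). With a collection left out it ran from -2.15 to -0.58 in Noradrenergic3, from 0.77 to 2.24 in Noradrenergic5 and from 0.33 to 2.56 in Noradrenergic1.

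The number of genes called in cholinergic against noradrenergic cells was 298 with filterByExpr, which tests fewer genes, 279 with at least 2 cells per library and 348 to 567 with a collection left out. Ach1 against Ach2 gave 3 with filterByExpr, 7 with voom, 5 with no replicate block, 7 with the chip as block and 5 to 17 with a collection left out. Glutamatergic against noradrenergic gave 141 (filterByExpr), 775 (voom), 184 (at least 2 cells) and 91 to 360 (a collection left out). Cholinergic against Glutamatergic gave 63 higher and 112 lower genes; the former became 37 with filterByExpr, 41 with DESeq2, 119 with voom and 10 to 96 with a collection left out, the latter 170 with RLE, 54 with filterByExpr, 62 with DESeq2, 54 with at least 2 cells and 42 to 117. For Noradrenergic1 to Noradrenergic5 filterByExpr gave 88, 61, 56, 79 and 53 and voom 391, 71, 475, 77 and 98; at least 2 cells gave 242 in Noradrenergic1, the chip as block 326 in Noradrenergic3 and DESeq2 94 in Noradrenergic5. With a collection left out these ran from 90 to 166, 114 to 205, 117 to 207, 87 to 152 and 56 to 174. The comparison of sexes gave 8 with no filter and 2 to 6 with a collection left out; it was not run with no replicate block, the chip as block, at least 2 cells or the Th rule. Where the number of tested genes or samples was the same, the cause of a change was not tested.

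At a minimum of 2 counts the share of noradrenergic cells was 0% for Chat, 1.55% for Slc18a3, 6.22% for Slc5a7 and 95.3% for Ache, and thinned to 15000 counts 1.66% for Slc18a3, 6.70% for Slc5a7 and 91.9% for Ache. The share of cholinergic cells with Chat fell from 68.8% to 43.75% at 2 counts or more. All of Chat, Slc18a3 and Slc5a7 then occurred at 2 counts each in 7 cholinergic, 0 noradrenergic and 0 Unclassified cells, and more than 1 of them in 1 noradrenergic and 2 Unclassified cells.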
